A study of Drosophila melanogaster with 2 samples.

Results

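The regions described here were 1424 distal stretches of chromatin that fell just below the cut of the irreproducible discovery rate (IDR) in a chromatin immunoprecipitation sequencing experiment on Drosophila melanogaster embryos. They were selected on the authors' pooled signal. The pooled list of both replicates holds 30000 regions, its 2426 strongest are the authors' optimal IDR peaks, and ranks 2427 to 5000 form the band below them. Of the 2574 regions in that band, 1424 had a summit more than 500 bp from every annotated protein-coding transcript start. They are called sub-threshold distal regions below. Their reference was the 1326 IDR peaks that pass the same distance rule, called distal IDR peaks, and a further 1537 distal regions at ranks 5001 to 7574 served as a weaker neighbouring band.

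All samples came from 1 group. A transgenic fly line stably expressed CG12236 with green fluorescent protein at its C-terminus, so the immunoprecipitation used an antibody against the tag and not against the native protein. Whole embryos of pooled sexes were collected over 0 to 24 h of development, chromatin was sonicated to 200 to 800 bp, and the labels number the 2 biological replicates 1 and 3. No untagged or untreated embryos were compared here. The lists describe an average over every cell type of the embryo and all of embryogenesis, and the read depth of each replicate is unknown. Every interval given below is a 95% interval that covers counting error only.

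CG12236 encodes a protein with a BTB domain, a fold through which such proteins pair with each other, and zinc fingers, which can contact DNA. In flies, proteins of this class include factors that shape chromatin and development, such as Trl, lola and psq. Distal regulatory DNA, often in introns and between genes, holds enhancers, which act on promoters at a distance. IDR compares the ranks of peaks between replicates. Here the IDR list equalled the 2426 strongest pooled regions, so a place on it follows pooled rank and not the agreement of each single peak. The IDR peak in unc-5, for instance, ranked 18020 in replicate 1 and 1559 in replicate 3.

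The sequences of 4 sub-threshold distal regions show what such a site looks like. They are the strongest in an intron (Lrch), between genes (odd) and in a coding exon (Ubr1), and CG1677, which after hts ranked best in both replicates. They come from the Release 6 (dm6) genome, plus strand, within 100 bp of the summit, and for the exon were trimmed to coding sequence. Capitals mark exact matches, on either strand, to the 18 motifs searched.
Lrch (chr2L:17382478-17382678, plus strand): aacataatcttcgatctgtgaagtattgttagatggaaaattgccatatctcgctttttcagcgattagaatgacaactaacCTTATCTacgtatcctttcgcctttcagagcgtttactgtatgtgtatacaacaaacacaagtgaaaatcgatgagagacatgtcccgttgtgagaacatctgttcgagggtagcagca
odd (chr2L:3600951-3601151, plus strand): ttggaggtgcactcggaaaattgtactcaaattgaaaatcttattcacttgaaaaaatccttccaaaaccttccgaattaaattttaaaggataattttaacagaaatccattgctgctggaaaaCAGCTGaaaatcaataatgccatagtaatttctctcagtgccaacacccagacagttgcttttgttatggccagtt
Ubr1 (chrX:16967550-16967672, plus strand): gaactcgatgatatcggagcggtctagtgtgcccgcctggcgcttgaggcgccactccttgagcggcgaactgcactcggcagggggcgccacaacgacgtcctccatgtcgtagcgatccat
CG1677 (chrX:7293323-7293523, plus strand): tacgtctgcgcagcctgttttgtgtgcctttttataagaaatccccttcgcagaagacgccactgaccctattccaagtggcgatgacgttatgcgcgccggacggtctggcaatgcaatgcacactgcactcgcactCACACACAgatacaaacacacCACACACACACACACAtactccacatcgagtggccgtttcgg
The Lrch window held the GATA site AGATAAG on the other strand, the odd window held the E-box CAGCTG, and the CG1677 window held the repeat CACACACA, while none of the 18 motifs matched in the Ubr1 coding stretch. Within 100 bp of the summit, these letters were in 2.61%, 10.7% and 5.01% of all 30000 pooled regions. Lrch encodes a leucine-rich repeat protein, odd a pair-rule zinc finger factor and Ubr1 a ubiquitin ligase.

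A set of 8 shorter windows shows CACTGTGC, an 8-base word that earlier work on these data had found at IDR peaks. These windows were chosen after the values were seen, as the 8 strongest sub-threshold distal regions that hold the word within 100 bp of the summit. Each is read on the strand that spells the word, and capitals mark the word.
Rip11 (chrX:18645182-18645242, plus strand): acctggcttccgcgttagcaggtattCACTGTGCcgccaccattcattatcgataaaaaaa
Sema1a (chr2L:8575224-8575284, plus strand): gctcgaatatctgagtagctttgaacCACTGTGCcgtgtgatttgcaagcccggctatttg
CG6398 (chrX:17829362-17829422, plus strand): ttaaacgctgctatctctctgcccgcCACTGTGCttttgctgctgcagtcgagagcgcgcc
Abd-B (chr3R:16948828-16948888, plus strand): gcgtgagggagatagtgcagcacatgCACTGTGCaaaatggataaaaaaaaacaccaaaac
CG43373 (chr3L:16544374-16544434, minus strand): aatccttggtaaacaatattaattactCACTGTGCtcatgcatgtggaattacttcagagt
dnc (chrX:3205981-3206041, minus strand): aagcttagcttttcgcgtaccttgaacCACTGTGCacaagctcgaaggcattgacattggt
Tmem214 (chr2L:10967362-10967422, plus strand): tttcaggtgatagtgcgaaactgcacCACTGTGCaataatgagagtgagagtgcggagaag
Pcyt1 (chr3L:1549336-1549396, minus strand): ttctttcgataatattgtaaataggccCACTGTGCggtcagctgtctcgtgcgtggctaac
In 5 of these 8 windows the base before the word was C. The hosts or nearest genes include Sema1a, a guidance cue of growing axons, Abd-B, a Hox gene of the posterior abdomen, and dnc, a cyclic AMP phosphodiesterase.

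Signal placed these regions between the IDR peaks and the bulk of the list, as the rule fixes. The pooled signal of the sub-threshold distal regions ran from 46.3 to 70.5, with a median of 54.6 and quartiles of 50.1 and 61.2. Distal IDR peaks ran from 70.5 to 1067, with a median of 102. Every sub-threshold distal region was 424 bp wide. At the upper edge there was no gap, since the first one, in an intron of Lrch, had a signal of 70.474 at rank 2427, next to the distal IDR peak in unc-5 at rank 2425 with a signal of 70.498. At the lower edge the last one, near sll, had a signal of 46.278 at rank 5000, against 46.254 for the first distal region outside, near Tollo, at rank 5003. The authors' −log10 q value sat at its maximum of 3.82 in 480 of the 1424 and reached down to 2.60 in the others.

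Nearly all of the sub-threshold distal regions were present in the list of each single replicate. A summit within 200 bp was found in both lists for 1344 of 1424 (94.4%, Wilson interval 93.1 to 95.5%), against 1322 of 1326 distal IDR peaks (99.7%). The share over all 21481 distal regions of the pooled list was 38.9%, and it was 83.5% in the weaker neighbouring band. Since the pooled signal that chose the regions was made from the same reads, these shares are a description. The list of replicate 3 held 1411 of the 1424 and that of replicate 1 held 1356. Of the rest, 67 were in replicate 3 alone, 12 in replicate 1 alone, and 1, in an intron of B4, in neither.

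The sub-threshold distal regions also ranked lower than the distal IDR peaks in the single replicates, which follows in large part from the split by pooled signal and is given as a description. Their median rank was 4627.5 in replicate 1 and 3998 in replicate 3, against 1317 and 1267 for distal IDR peaks. Only 224 (15.7%) were among the 2426 strongest of replicate 1 and 162 (11.4%) among the 2426 strongest of replicate 3, against 75.3% and 87.8% of distal IDR peaks. The shares over all distal regions were 6.27% and 6.49%. In both replicates at once, 7 (0.492%) ranked this high, against 858 distal IDR peaks (64.7%) and 4.09% of all distal regions. The 2 ranks differed by more than a factor of 2 for 687 of the 1344 found in both lists, and the median factor was 2.03. It was 532 of 1322 for distal IDR peaks, with a median factor of 1.73. In the next band it was 678 of 1284, with a median factor of 2.08, and over all distal regions 3351 of 8352. Few sub-threshold distal regions were thus among the strongest of both replicates, and most were among the strongest of neither. Signals ran from 8.50 to 88.2 with a median of 21.7 in replicate 1 and from 11.6 to 102.7 with a median of 33.2 in replicate 3. The sources used here do not state the scale of the signal, so these levels are not compared between replicates.

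**Figure D1:**
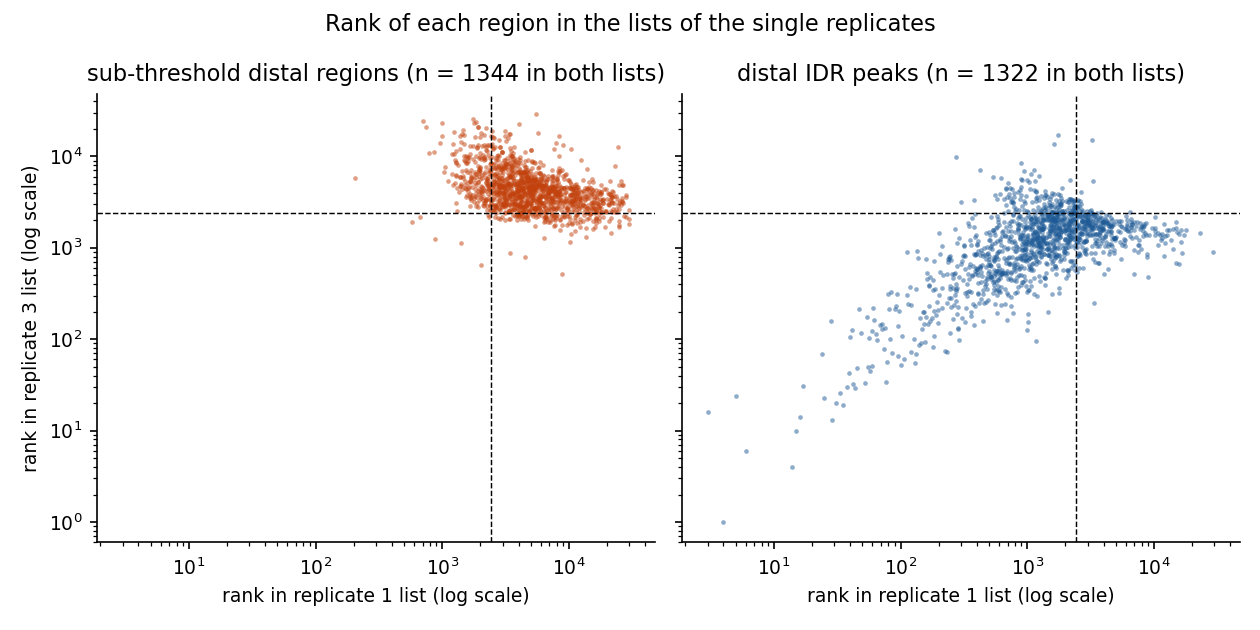
Rank in the list of replicate 1 (x, log scale) against rank in the list of replicate 3 (y, log scale) for the 1344 sub-threshold distal regions (left) and the 1322 distal IDR peaks (right) found in both lists, 1 point per region. Dashed lines mark rank 2426, and 7 sub-threshold distal regions lie below both lines, against 858 distal IDR peaks.

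The 10 strongest sub-threshold distal regions show this mix. The region of Lrch had a signal of 12.4 in replicate 1 and 50.5 in replicate 3, where its ranks were 15560 and 1967. The strongest region in kirre, an adhesion molecule of muscle founder cells, was likewise low in replicate 1 (signal 9.56, rank 24861) and high in replicate 3 (signal 54.9, rank 1696). In hth, a homeodomain cofactor of Hox proteins, the order was the other way, with a signal of 39.9 at rank 1291 in replicate 1 and 25.7 at rank 6275 in replicate 3. Each of these 3 was among the strongest 2426 of 1 replicate and well below that rank in the other.

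Others were moderate in both. The intronic region of pk, a planar cell polarity gene, stood at rank 3196 of replicate 1 (signal 25.8) and rank 3067 of replicate 3 (signal 38.8). The region 5705 bp from the start of odd ranked 2865 and 2617, with signals of 27.1 in replicate 1 and 42.6 in replicate 3. Regions in Stat92E, the transcription factor of JAK/STAT signalling, in CenG1A and in CG9801 had ranks between 2141 and 3100 in both lists. The remaining 2 of the 10 were in Rip11, a partner of the vesicle GTPase Rab11, with signals of 21.8 in replicate 1 and 47.0 in replicate 3, and in the 3′ untranslated region of lwr, the SUMO-conjugating enzyme, with 26.0 and 44.8.

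The 5 weakest lay near CG13898, side-IV and sll, in an intron of shn, a zinc finger factor of Dpp signalling, and in the 3′ untranslated region of Rbp9, an RNA-binding protein of neurons. All had pooled signals of 46.3. The region of shn had a signal of 8.86 in replicate 1, at rank 28075, and 35.5 in replicate 3, at rank 3571. That of sll ranked 6190 in replicate 1 and 6189 in replicate 3, the closest agreement among these 5.

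Regions that stood highest in both replicates lay beside an IDR peak. The 5 with the best worse rank were in introns of hts, CG1677, Spn, Fili and Kank, and their summits were 200 to 226 bp from an IDR summit. The region of hts, which encodes the membrane skeleton protein adducin, had signals of 48.1 in replicate 1 and 65.7 in replicate 3. In all 5, the replicate region matched to the sub-threshold summit in at least 1 replicate was also the match of the IDR peak. Such shared matches occurred for 18 of the 1356 regions found in replicate 1 and 11 of the 1411 found in replicate 3. They made up 6 of the 7 that ranked among the strongest 2426 in both. Among the 1293 with no IDR summit within 1000 bp, 1221 (94.4%) were in both lists and 1 was among the strongest of both. That region, named after its values were seen, lay in an intron of Prosap, a scaffold protein of synapses, at rank 2304 of replicate 1 and 2300 of replicate 3.

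The largest differences in order between the replicates were of the same kind in part. Near Doc2, a T-box gene of the dorsal embryo, the signal was 16.2 in replicate 1 (rank 8742) and 103 in replicate 3 (rank 521), and the replicate 3 match was shared with an IDR peak 199 bp away. Matches in replicate 1 were likewise shared near CG34460 and nrv1 and in tou, which ranked 708, 204 and 744 there and 24336, 5846 and 20766 in replicate 3. The regions in spdi and Evi5 shared no match. They ranked 29964 and 21364 in replicate 1 and 1811 and 1434 in replicate 3.

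The sub-threshold distal regions lay mainly in introns. Of the 1424, 903 (63.4%, Wilson interval 60.9 to 65.9%) had their summit in an intron, 443 (31.1%) between genes, 32 in a 3′ untranslated region, 27 in a 5′ untranslated region and 19 (1.33%) in a coding exon. Among distal IDR peaks 67.2% were in introns and 29.9% between genes. The intron share was thus lower below the cut, by a difference of −3.78 percentage points (Newcombe interval −7.32 to −0.22), and the first intron held 610 of the 903 intronic ones (67.6%), against 72.5% of intronic IDR peaks, a difference of −4.95 points (−9.16 to −0.71). Each replicate's own list gave an intron difference of the same sign, −8.29 points in replicate 1 and −3.96 in replicate 3. For the first intron it was −7.91 points in replicate 3 and −1.65 in replicate 1, whose interval of −5.95 to 2.65 includes 0. Among the 706 strongest neither difference had an interval that leaves out 0, at −2.04 points (−6.40 to 2.24) for introns and −2.29 (−7.46 to 2.73) for first introns. Beyond 1000 bp of a start the intron difference was −3.08 points, with an interval that includes 0.

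Coding exons were rare in the band and became more frequent at its lower end and beyond. The 19 sub-threshold distal regions in coding exons compare with 7 distal IDR peaks (0.528%), a difference of 0.81 points (0.07 to 1.60), and with 106 regions (6.90%) in the next band, a difference of −5.56 points (−7.02 to −4.18). In steps of 500 ranks the share was 0.719%, 0.385%, 0.73% and 1.02% down to rank 4425 and 4.03% at ranks 4431 to 4926. It was 2.38% in the step that straddles rank 5000, 6.34% in the next, and 17.9% at ranks 11927 to 12426. Of the 19, 11 fell among the ranks after the first 2000 of the band. The difference from the next band held in each replicate's own list, at −5.88 points in replicate 1 and −7.22 in replicate 3. That from distal IDR peaks was 2.98 and 2.72 points there, but among the 706 strongest it was 0.04 (−0.62 to 0.96), among those beyond 1000 bp of a start 0.20 (−0.58 to 0.97), and among those with no IDR summit within 1000 bp 0.71 (−0.02 to 1.52).

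**Figure D2:**
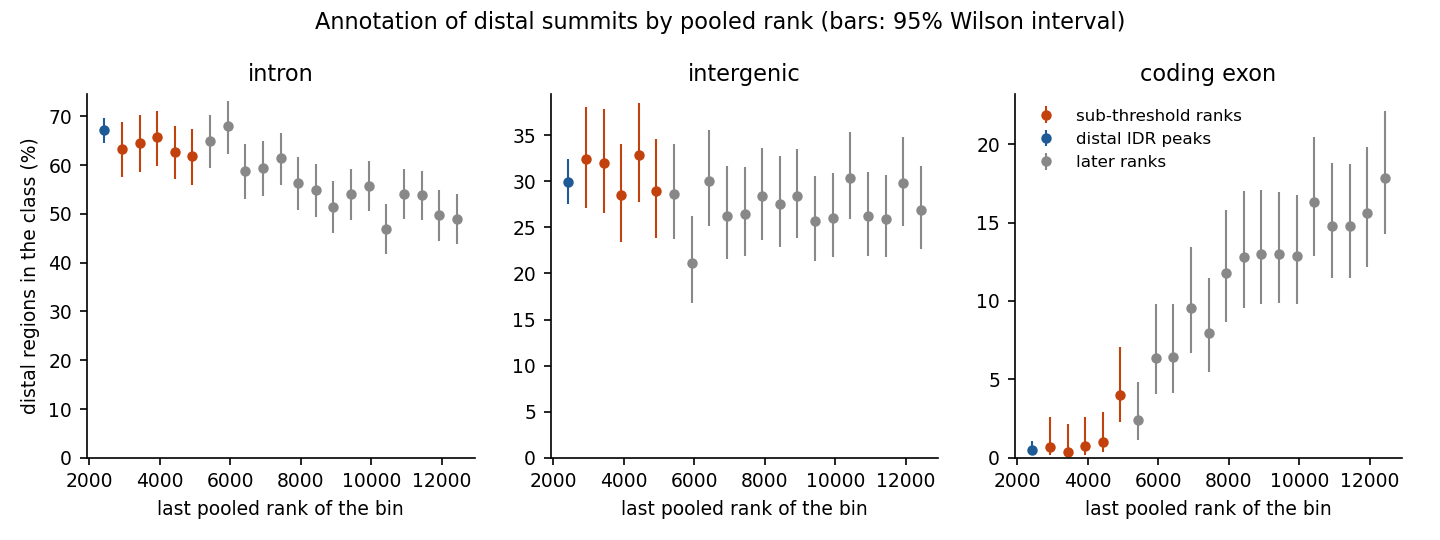
Share of distal regions (y, %) in introns, between genes and in coding exons by pooled rank (x, last rank of each bin): orange, bins of 500 ranks wholly within the sub-threshold band; blue, all distal IDR peaks; grey, later ranks, including the bin that straddles rank 5000. Points are shares and bars 95% Wilson intervals, and the coding exon share goes from 0.719% in the first orange bin to 4.03% in the last.

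The coding exon regions were found in both replicates as often as the others, 18 of 19, and lay in sequence with a mean GC content of 59.4%, against 37.9% for the intronic ones. They included hid, an inducer of cell death, with signals of 24.0 in replicate 1 and 34.0 in replicate 3. In the Hox gene lab the exonic region had 10.8 in replicate 1 and 36.1 in replicate 3. That of Dab was listed in replicate 1 alone, at 39.3. The strongest, in Ubr1, had signals of 32.7 in replicate 1 and 36.8 in replicate 3, and the other 15 had pooled signals of at most 69.6.

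The median distance to the nearest protein-coding start was 3422 bp, with quartiles of 1382 and 7901 bp, against 3011 bp for distal IDR peaks. The farthest summit was 64519 bp away, 232 lay within 1000 bp and 268 beyond 10000 bp. A start of a non-coding transcript lay within 500 bp of 70 of them (4.92%), against 5.73% of distal IDR peaks. The nearest IDR summit, distal or not, was a median of 8244.5 bp away. It was within 5000 bp for 522 (36.7%, 34.2 to 39.2%), against 36.4% in the next band and 27.1% of the weaker distal regions beyond it. The difference from the weaker regions was 9.61 points (7.05 to 12.2), and that from the next band was 0.29 points (−3.18 to 3.76).

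Host genes were long, and part of them also hosted distal IDR peaks. The sub-threshold distal regions lay within 685 protein-coding genes, of which 285 (41.6%) also hosted a distal IDR peak. Those 285 were 45.0% of the 633 hosts of distal IDR peaks, and in the next band 310 of 823 hosts (37.7%) also hosted one. The hosts had a median length of 22504 bp, against 2166 bp for all 13945 protein-coding genes, and 585 of the 685 were among the 2789 longest genes. Of those 585 hosts 47.2% also hosted a distal IDR peak, as did 44.7% of the next band's hosts among the same 2789 genes and 19.4% of all 2789. The IDR peaks also marked the promoter, within 500 bp of a start, of 172 hosts (25.1%, 22.0 to 28.5%), against 10.2% of all genes. The share was similar for the hosts of distal IDR peaks (25.3%) and of the next band (23.2%, 20.5 to 26.2%), and gene length was not matched. Of the 595 genes that flanked the intergenic ones, 254 (42.7%) hosted or flanked a distal IDR peak, against 43.2% for the next band.

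Most hosts held 1 region (473 genes) and 16 held 5 or more. The kirre gene, on chromosome X at chrX:2740384-3134532, held 11 sub-threshold distal regions and 7 distal IDR peaks in its 394 kb. All 11 were intronic and in both replicate lists, with signals of 9.56 to 33.3 in replicate 1 and 25.7 to 54.9 in replicate 3. Of these, 10 lay 210 to 333 kb from the gene's start, and 1 at 46.3 kb. The bun gene, which encodes TSC-22 family factors, held 8 within 91.1 kb beside 2 distal IDR peaks, and 7 of the 8 were in both lists. CG43658 held 7 within 105 kb beside 2 distal IDR peaks.

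**Figure D3:**
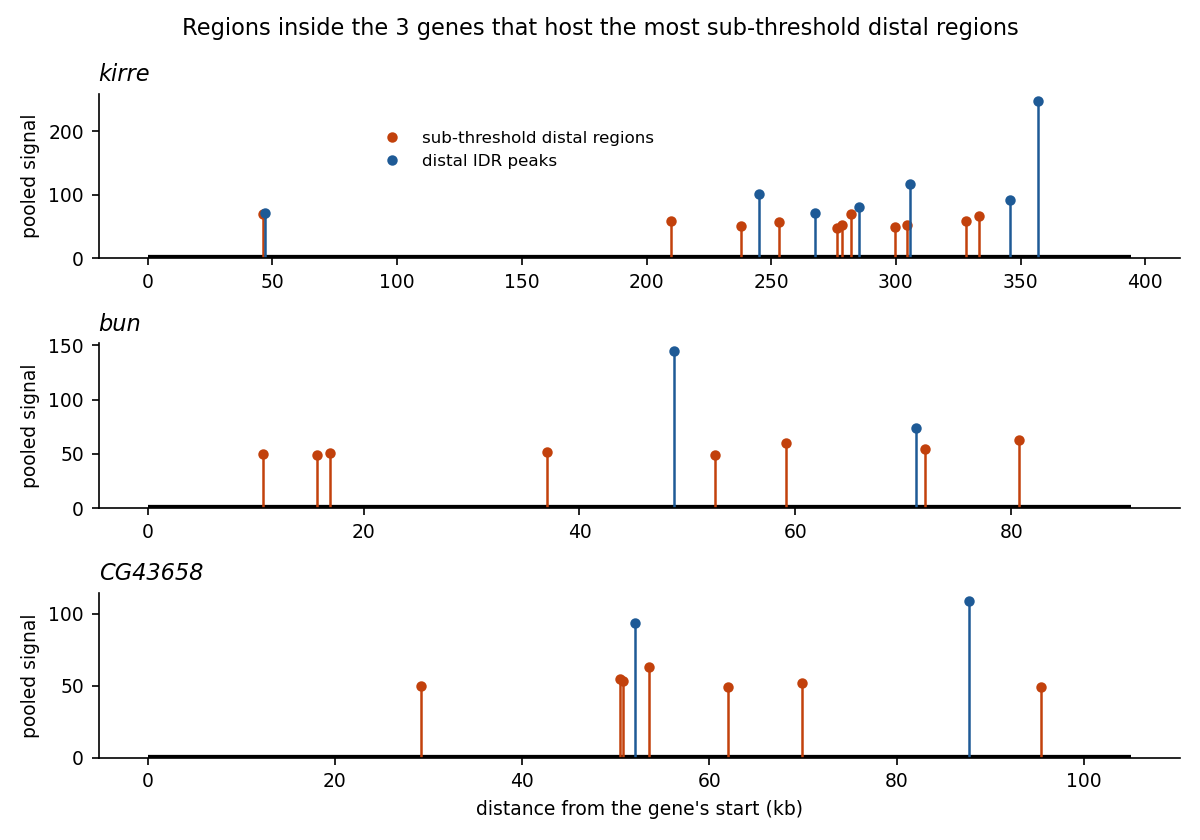
Pooled signal (y) of the sub-threshold distal regions (orange) and distal IDR peaks (blue) inside kirre, bun and CG43658, the 3 genes with the most sub-threshold distal regions, by distance from the gene's start in kb (x). In kirre 10 of the 11 orange points lie between 210 and 333 kb, interspersed with blue ones.

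Next came rdx, a BTB adaptor that directs the Hedgehog effector Ci to degradation, with 6 sub-threshold distal regions and 2 distal IDR peaks. A further 12 genes held 5 each, of which the 6 shortest complete the 10 hosts named by rule. In drn these fell within 22.8 kb, or 21.95 per 100 kb, the highest density of the 10, and no distal IDR peak lay in the gene. Only 3 of the 5 in drn were in both replicate lists, and an IDR peak marked its promoter. The nuclear receptor gene ftz-f1 also held 5 and no distal IDR peak, and all 5 were in both lists, with signals of 14.6 to 23.0 in replicate 1 and 20.7 to 38.8 in replicate 3. In shn, by contrast, 5 stood beside 7 distal IDR peaks. siz, a guanine exchange factor for Arf GTPases, the kinase gene Btk and the insulin receptor gene InR each held 5 beside 2.

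Gene groups of development were represented among hosts and nearest genes, most of them made of long genes. Over all genes, 8.13% had a sub-threshold distal region as host or nearest start, 7.27% a distal IDR peak and 9.18% a region of the next band. The counts below are descriptions of lists chosen with earlier results known, and gene length was not matched. Among Hox genes, which set segment identity, 6 of 8 had one (Wilson interval 40.9 to 92.9%), namely lab, Dfd, Antp, Ubx, abd-A and Abd-B, against 2 of 8 with a distal IDR peak and 6 of 8 with a region of the next band. The strongest were in an intron of Abd-B, with signals of 19.4 in replicate 1 and 41.8 in replicate 3, and 26968 bp from the start of Dfd, with 23.6 and 45.9. In lab the intronic region had 41.6 in replicate 1 and 25.4 in replicate 3. Counted as regions inside the Hox genes, the order was the other way, with 14.8 distal IDR peaks and 11.9 sub-threshold distal regions per Mb. Of the gap and pair-rule genes, which lay out the segments, 6 of 16 had one, against 4 of 16 for distal IDR peaks and 3 of 16 for the next band. These genes are short, with a median of 2683 bp. Neither a sub-threshold distal region nor a distal IDR peak lay inside any of them. The strongest sub-threshold distal regions were near odd, slp2 (16.2 in replicate 1 and 47.0 in replicate 3) and hry (36.6 and 24.2).

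In signalling pathways the lists did not all go the same way. In the Hedgehog and Wingless list 4 of 16 genes had a sub-threshold distal region, against 8 of 16 with a distal IDR peak. They were the receptors fz and fz2, the co-receptor arr and the inhibitor nkd. fz2 alone held 5 regions and no distal IDR peak. Counted as regions inside the genes of this list, there were 23.7 sub-threshold distal regions and 21.3 distal IDR peaks per Mb. In the Notch list it was 6 of 18 against 5 of 18, including the ligand genes Delta and Ser, the receptor N and the co-activator mam. The region near Ser had signals of 40.6 in replicate 1 and 21.3 in replicate 3. In the list of TGF-beta and EGF receptor signalling it was 10 of 21 against 13 of 21, and all 10 also had a distal IDR peak. The strongest were in shn, in the receptor gene tkv (15.3 in replicate 1 and 46.7 in replicate 3) and near the repressor gene brk (18.7 and 48.4). Growth control kinases and related genes had 6 of 16 in both cases, among them InR, sd and foxo. In the next band these lists, in the order given, had 8 of 16, 6 of 18, 9 of 21 and 5 of 16. Counted as regions inside the Notch genes, there were 14.6 sub-threshold distal regions and 17.5 distal IDR peaks per Mb.

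Among transcription and chromatin regulators, 7 of 16 genes of BTB domain factors had a sub-threshold distal region, against 11 of 16 with a distal IDR peak. They were ab, bab1, bab2, chinmo, lola, psq and ttk. The ecdysone list, the receptor and early targets of the moulting hormone, had 6 of 12 against 5 of 12. In Eip75B the strongest had signals of 23.6 in replicate 1 and 43.1 in replicate 3. The GATA and Friend of GATA list had 3 of 6 in both cases, with ush holding 5 sub-threshold regions and 8 distal IDR peaks. The region in grn was listed in replicate 1 alone, at 42.3. A list of the trithorax group, which keeps genes active, and of chromatin remodellers had 6 of 16 against 7 of 16. In it kis, osa and Mi-2 led, and all 6 also had a distal IDR peak. The region of kis was strong in replicate 1 (45.2) and weak in replicate 3 (13.3). The Polycomb group, which keeps genes silent, had 2 of 15 against 3 of 15, ph-p and Su(z)2. No insulator or architectural protein gene of 14 had one (Wilson upper limit 21.5%), against 1 with a distal IDR peak. In the next band these lists, in the order given, had 8 of 16, 9 of 12, 4 of 6, 5 of 16, 1 of 15 and 3 of 14. Counted as regions inside the ecdysone genes, there were 27.4 sub-threshold distal regions and 28.9 distal IDR peaks per Mb.

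Structural and tissue genes gave further examples. Neuronal adhesion and axon guidance genes had 11 of 21, against 8 of 21 with a distal IDR peak, led by Sema1a, fra and Ten-a, and the muscle and mesoderm list had 6 of 21 in both cases, led by kirre, how and bin. Actin regulators had 7 of 17 against 3 of 17, including the profilin gene chic, with signals of 29.7 in replicate 1 and 34.8 in replicate 3, ena and Abl. The tracheal list had 4 of 12 against 2 of 12 and no gene with both, led by the FGF gene bnl (36.4 in replicate 1 and 31.3 in replicate 3) and by vvl. Epithelial polarity genes had 6 of 17 against 5 of 17, with dlg1, scrib and baz leading. Neuroblast and neuronal factors had 5 of 19 and clock genes 5 of 11 in both cases, with nerfin-1, D and Dr leading the one list and cwo, Pdp1 and Clk the other. The region nearest to D was listed in replicate 3 alone, at 58.8. Neuronal ion channel genes had 2 of 18, Shal and nAChRalpha7, against 1 of 18. Inside these genes there were 1.10 sub-threshold distal regions and 2.20 distal IDR peaks per Mb. Their median length was 51456.5 bp, and that of the axon guidance genes 50951 bp. Whether gene length accounts for the counts was not tested. In the next band the lists of this paragraph, in the order given, had 9 of 21, 7 of 21, 6 of 17, 5 of 12, 8 of 17, 5 of 19, 5 of 11 and 4 of 18.

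**Figure D4:**
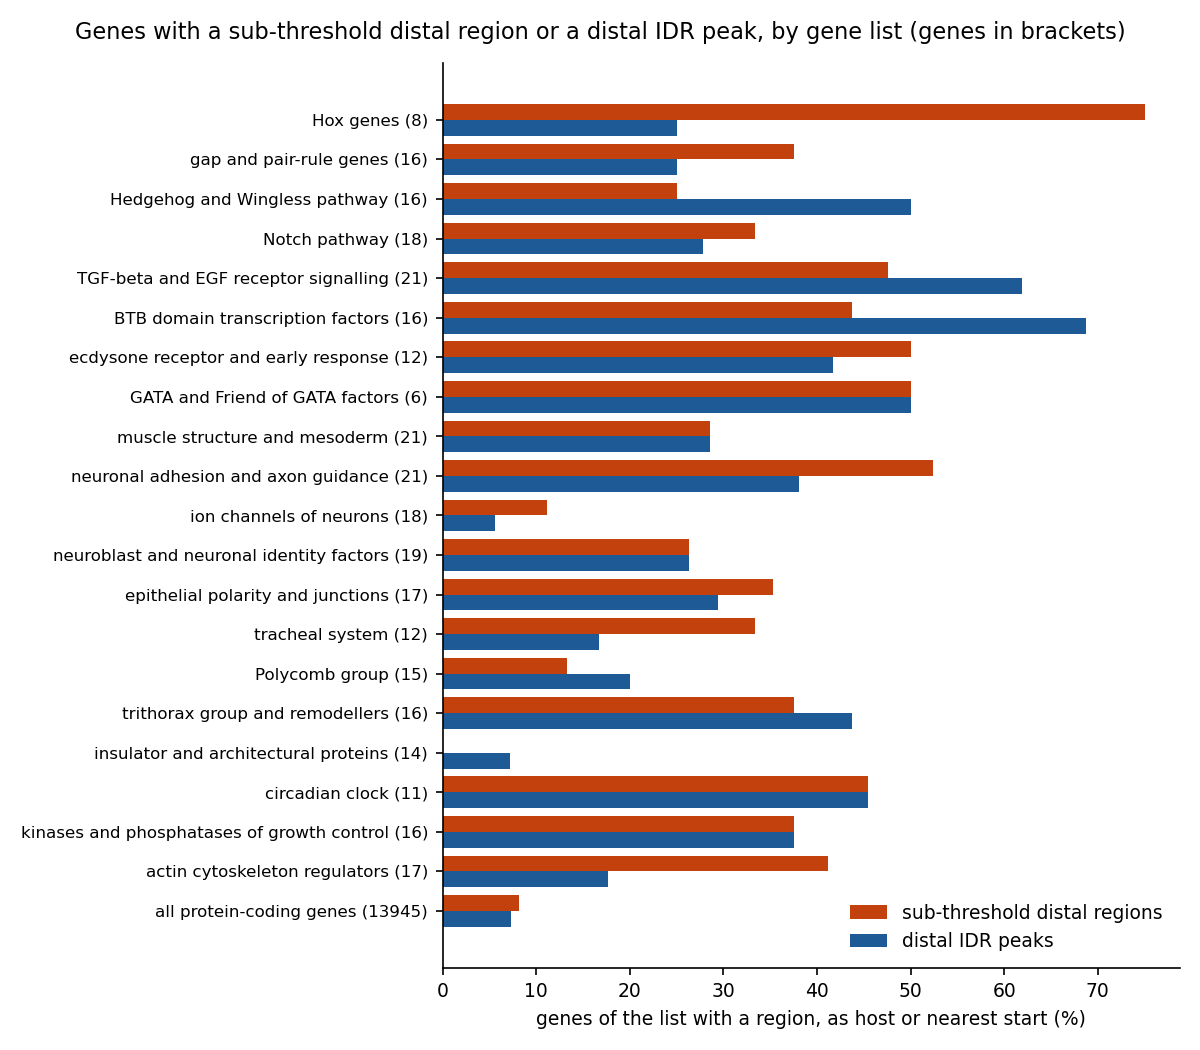
Share of the genes in each list (x, %; number of genes in brackets) with a sub-threshold distal region (orange) or a distal IDR peak (blue), as host or nearest start; the last pair gives all protein-coding genes. The Hox list has 6 of 8 orange against 2 of 8 blue (6 of 8 in the next band, not drawn), and the BTB list 7 of 16 against 11 of 16.

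The gene of the tagged protein itself held no sub-threshold distal region. The nearest was 10889 bp away, between genes and 3615 bp from the start of Act5C, and was found in replicate 3 alone, with a signal of 47.4. The next, in CG3726 and 11489 bp away, had signals of 14.8 in replicate 1 and 37.3 in replicate 3.

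Base composition at the summit lay between that of the stronger and of the weaker regions. Within 100 bp of the summit the GC content averaged 38.5% ± 7.22 (SD over 1424 regions), against 37.1% ± 5.97 for distal IDR peaks, a difference of 1.40 points (0.91 to 1.89), and 40.6% ± 8.29 in the next band. The differences from the strongest regions were 1.89 points in replicate 1 and 2.15 in replicate 3. Over 200 bp either side the difference from distal IDR peaks was 0.23 points (−0.15 to 0.60), and among the 706 strongest it was 0.51 points (−0.07 to 1.10) within 100 bp.

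Within 100 bp of the summit, the interval of the difference between the sub-threshold distal regions and the distal IDR peaks included 0 for all 18 motifs in the pooled list. The repeat GAGAGAG, bound by GAGA factor, was in 62 of the 1424 (4.35%), against 3.70% of distal IDR peaks, a difference of 0.66 points (−0.83 to 2.14), and in 3.84% of all pooled regions. Within 200 bp it was in 9.06% and in 11.99%, a difference of −2.93 points (−5.25 to −0.64). Motif matches are a description of letters and do not show that a factor binds.

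The word CACTGTGC was in 54 of the 1424 (3.79%, 2.92 to 4.91%), against 5.05% of distal IDR peaks, a difference of −1.26 points (−2.84 to 0.28). Within 50 bp the difference was 0.44 points (−0.65 to 1.52), and within 200 bp it was −2.20 points (−4.18 to −0.25). It was in 2.60% of the next band and 1.86% of all pooled regions. In windows of the same length 1000 bp to either side of the sub-threshold summits it was in 1.26%, a difference of 2.53 points (1.53 to 3.70). Its density was 0.221 per kb within 100 bp of these summits and 0.0597 per kb at 500 to 1000 bp, a ratio of 3.71, against 6.14 at distal IDR peaks. The ratio was 2.91 in the next band and 1.58 in the weaker regions, so it went down with rank. In each replicate's own band the share was 2.82% in replicate 1 and 3.90% in replicate 3, against 4.47% and 5.67% among their strongest. The differences there were −1.65 points (−3.13 to −0.22) in replicate 1 and −1.76 (−3.39 to −0.18) in replicate 3, so the intervals left out 0, as did that of −1.53 points (−2.96 to −0.13) with distal set at 200 bp. Because the word was found in earlier work on these data, its presence here is no independent evidence.

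The 8 bases were often preceded by another C. The base before the word was C in 42 of the 60 words at the sub-threshold summits (70.0%, 57.5 to 80.1%), against 54 of 74 at distal IDR peaks (73.0%) and 45.2% of the 5401 words in the genome. The share was 59.5% (44.5 to 73.0%) in the next band and 55.7% (49.4 to 62.0%) in the weaker distal regions. The windows of Sema1a, CG6398 and dnc printed above show this C. Only 1 of the 60 words overlapped another motif searched, the Pho core GCCATNTT, which was in 3.93% of all pooled regions. Of the 54 regions with the word, 44 (81.5%) were intronic, against 62.7% of those without it. Among distal IDR peaks the shares were 73.1% with the word and 66.9% without it. All 54 were in the replicate 3 list and 50 in that of replicate 1. Of the 1370 sub-threshold distal regions without the word, 1357 and 1306 were in these lists, so presence was about as frequent without it. None of the leading hosts kirre, bun and CG43658 held it, while 2 of the 5 regions in Sema1a did.

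**Figure D5:**
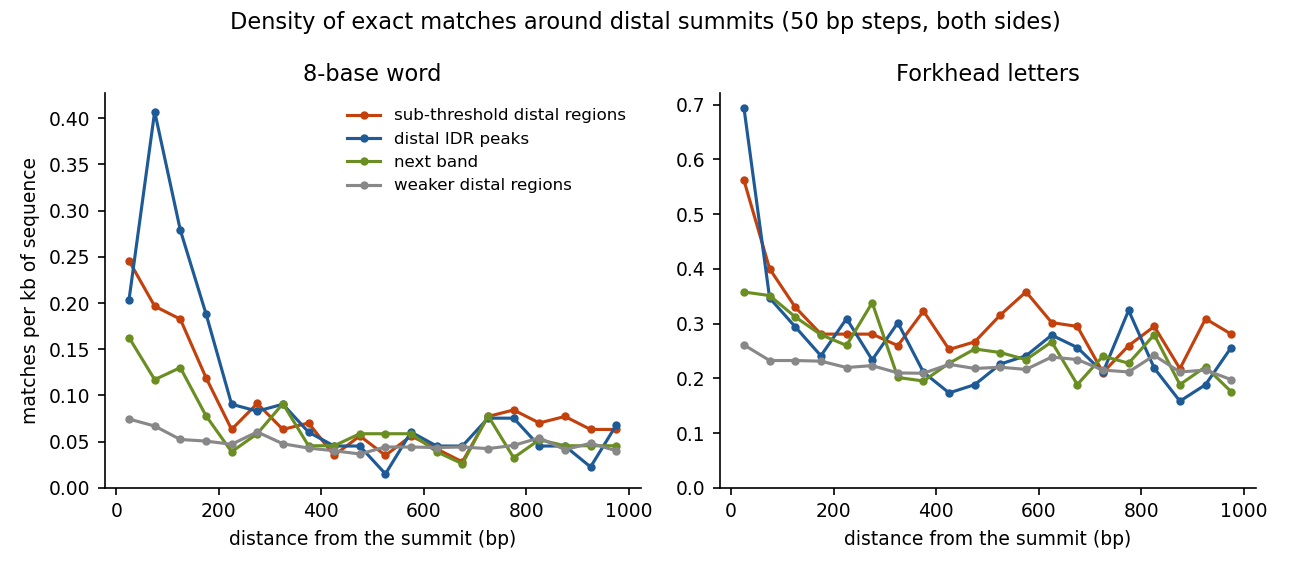
Exact matches per kb (y) to CACTGTGC (left) and to the Forkhead letters TGTTTAC (right), both strands, by distance from the summit (x, bp, steps of 50) for the sub-threshold distal regions, distal IDR peaks, the next band and the weaker distal regions. The left curve of the sub-threshold regions is highest near the summit, at a mean of 0.221 per kb within 100 bp against 0.0597 at 500 to 1000 bp.

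Among the other motifs, 2 had a share above that of the windows 1000 bp to either side, with an interval that leaves out 0. By density within 100 bp against 500 to 1000 bp, the ratio was 1.69 for TGTTTAC and 1.33 for CATATG. It was higher for CATCNCTA, at 2.20, on 29 matches against 66. The share of CATCNCTA differed from these windows by 0.60 points, with an interval that includes 0 (−0.17 to 1.52). The Forkhead letters TGTTTAC were in 127 sub-threshold distal regions (8.92%), against 8.97% of distal IDR peaks, 6.64% of the next band and 5.23% of the flanking windows, a difference from the flanks of 3.69 points (2.06 to 5.45). CATATG, read by the mesoderm factor Twist, was in 131 (9.20%), against 9.35% of distal IDR peaks, 7.16% of the next band and 6.43% of the flanks, a difference of 2.77 points (1.08 to 4.59). They were in 5.75% and 6.36% of all pooled regions. The AP-1 site TGANTCA was below these windows, at 4.56% against 6.39%, a difference of −1.83 points (−3.19 to −0.35), and was in 4.28% of all pooled regions. By density the gap was smaller, at 0.242 per kb within 100 bp against 0.273 at 500 to 1000 bp, a ratio of 0.887. These shares cover 18 motifs, and no adjustment was made for their number.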

How the data were processed

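The data are peak lists from chromatin immunoprecipitation sequencing of 2 biological replicates of 1 group of embryos. Per the deposited notes, lists were made from replicate and control alignments. The signal of each region and its −log10 q (saturated at its maximum) are the authors' values as deposited, on scales not stated in the sources used here. The aligner, peak caller, their versions and the IDR threshold are not stated in them either. Read depth is unknown, and the dm3 lists were not analysed here.

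Pooled regions were ranked by signal and kept as distal where the summit lay over 500 bp from all 19252 protein-coding start positions of Ensembl release 115 on the Release 6 genome. Classes were assigned in the order 5′ untranslated region, 3′ untranslated region, coding exon, intron and intergenic. A replicate match lay within 200 bp of the summit. Motifs were exact letters on both strands of a 201 bp window, and no sequence of chromosome arm 2R is printed. Shares have Wilson, differences of shares Newcombe and differences of means normal intervals, all at 95%. No p-value was computed, since the regions were selected on signal and there is 1 group. The counting was tested on planted data, with Python 3.11.15 and its packages scipy 1.17.1, numpy 2.4.6, matplotlib 3.10.9 and pandas 2.3.3.

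Genes were named by rule: the 10 strongest and 5 weakest regions, the 10 genes hosting the most, the 5 best by worse replicate rank, the 3 largest rank ratios each way, up to 3 genes per list and the nearest to CG12236. Other named genes (coding exon regions, those with CACTGTGC, transposons, list members given without values, Prosap, B4) were named after their values were seen. The regions and gene lists were chosen with earlier results of these data known. Older symbols were matched through RefSeq synonyms.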

Additional observations from a re-analysis of the deposited data

How the results depend on the processing

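Of 113 values recomputed under 17 settings for 14 results, 80 stayed within the interval of the reported value (for the number of regions, within 1.5 times it) and 33 did not. The sign changed only for the differences in CACTGTGC within 50 bp and in GAGAGAG within 200 bp of the summit and in replicate 1 alone (−0.17 points), whose reported values have intervals that include 0. The alternatives for the coding exon, first intron and CACTGTGC results, and those without regions within 1000 bp of an IDR summit, were chosen after seeing the data. Among the 706 sub-threshold distal regions in the stronger part of the band, 96.03% were in both replicate lists, 40.2% lay within 5000 bp of an IDR summit and 47.5% of the host genes hosted a distal IDR peak. There the differences from distal IDR peaks were 0.51 points in GC content and 0.0387 points in coding exon share. The share in both lists was 81.5% for summits matched within 100 bp, 97.1% within 500 bp, 96.9% by overlap of intervals and 27.6% among the 5000 strongest of each list. With distal set at 200 bp, the intron share was 60.0%, the coding exon difference from distal IDR peaks 1.84 points and the median distance to a start 2298 bp. At 1000 bp that distance was 4569 bp and the coding exon difference from the next band −3.91 points, and with starts of every biotype the distance was 2632 bp. An IDR summit lay within 1000 bp of 9.20% and within 10000 bp of 55.4%. Within 50 bp of the summit the GC difference was 2.24 points, the share with CACTGTGC 2.25% and its difference 0.44 points. Within 200 bp these were 0.23 points for GC, 6.25% for the word and −2.93 points for GAGAGAG. Leaving out 1 replicate, so that the other's own list was ranked, gave intron shares of 59.5 to 63.9%, intron differences of −8.29 to −3.96 points, median distances of 3043.5 to 3415 bp and host shares of 37.7 to 40.0%. It gave GC differences of 1.89 to 2.15 points, coding exon differences of 2.72 to 2.98 points from the strongest and −7.22 to −5.88 points from the next band, and shares with the word of 2.82 to 3.90%. The cause of these shifts was not tested. No paired analysis was possible because there is 1 group. The pooled signal decides which regions count as sub-threshold, and without read depth no limit of detection can be given.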

Other observations

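Distal summits throughout the pooled list kept a minimum spacing from IDR summits. None of the 1424 sub-threshold distal regions lay within 150 bp of an IDR summit, nor did any of the 1537 in the next band or the 17194 weaker ones. Of the 1424, 51 (3.58%) lay at 150 to 250 bp, 3 at 250 to 500 bp and 77 at 500 to 1000 bp. In the next band the counts over these 3 ranges were 63, 3 and 75, and in the weaker distal regions 196, 18 and 607. Of the 51, 48 were in both replicate lists, and for 25 of them a replicate match was shared with the IDR peak.

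The density of sub-threshold distal regions was lower on chromosome 4, where 4 gave 2.97 per Mb, than on the other arms, at 8.62 (2R) to 11.9 (2L). The same held for distal IDR peaks, where 7 gave 5.19 per Mb, against 9.35 (3R) to 11.0 (2L). In the next band 10 gave 7.42 per Mb, against 10.9 (X) to 12.2 (2L). A summit lay in an annotated transposon in 7 of the 1424, against 4 of 1326 distal IDR peaks. The counts were 6 of 1537 in the next band and 110 of 17194 in the weaker distal regions, so such summits were rare throughout. Of the 7, those in CG33298, Ten-a, kek5 and sv and near CG7011 and Jhbp1 lay in an INE-1 element. INE-1 is a short mobile element common in Drosophila. The region near aft lay in a pogo element. All 7 were in both replicate lists, and the one near Jhbp1 had the highest signal of them in replicate 1, at 39.6, with 31.2 in replicate 3.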
